A study of Mus musculus with 8 samples.

Results

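Genes of endoplasmic reticulum (ER) turnover and protein quality control were examined in mouse liver RNA: Retreg1, Ube2j1, Vcp, Erp44, Sec61b, Creb3 and Calu. They are 7 of 55416 rows in the count table and were taken by symbol from 3 nuclear stretches, on chromosome 4 (3.8 to 62.4 Mb), chromosome 6 (3.5 to 30.9 Mb) and chromosome 15 (8.1 to 35.9 Mb) of GRCm38, where row names and counts match. Elsewhere in the nuclear genome they mostly do not match. The genes were thus selected on their names and on count levels, and with earlier genotype results of these libraries known. The values below describe the 7 genes and are no independent support for any pattern among them.

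Poly-A RNA was sequenced from the livers of 8 mice, 1 library per mouse. Of these, 4 were Sost-/- and 4 were SostPB/-, and all 8 were on the MCD diet, in the field's usual sense a diet lacking methionine and choline that brings on steatohepatitis. The product of Sost is sclerostin, which blocks Wnt signals outside the cell, and the study asked what its overexpression does to steatohepatitis. Both genotypes carry at least 1 Sost minus allele. The labels do not explain PB, give no wild-type or normal-diet group, and give no age, so the genotypes are compared by name.

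The row named Sost held 0 counts in each of the 8 libraries, but it lies outside the 3 stretches, so the targeted gene could not be checked here. Of the 553 other protein-coding rows on the stretches, 54.8% reached a mean of 100 counts, against 15.3% of 21355 elsewhere. Among the 20 protein-coding rows nearest to each of the 7 genes, between 8 (Vcp) and 13 (Erp44 and Sec61b) reached that mean. The stretches were drawn where row names fit the counts. These shares, and the detection of markers given below, are thus no independent check of the names. Libraries held 9578086 to 14932773 counts. Mitochondrial rows took 51.9% ± 5.14 of counts in Sost-/- and 59.3% ± 3.92 in SostPB/- (SD, n = 4 each, exact two-sided permutation test p = 0.114). That share enters the library totals behind every level. With mitochondrial rows left out of the fit, 0 of the 7 genes passed the test and Retreg1 was at -0.45 (log2, SostPB/- over Sost-/-). All 9 hepatocyte markers on the stretches were detected, with summed levels of 17890.4 to 21344 on the counts-per-million (CPM) scale in Sost-/- and 20568 to 22633 CPM in SostPB/-. The endothelial markers Cav1, Cav2 and Wnt2 summed to 27.5 to 35.3 and 28.2 to 32.2 CPM, and the B cell markers Pax5 and Cd72 to 6.37 to 17.8 and 6.51 to 16.7 CPM. The 6 stellate cell and fibroblast markers summed to 645 to 837 and 712 to 906 CPM, 4 other immune markers to 81.1 to 115 and 65.6 to 105 CPM, and the epithelial markers Met and Cdh17 to 338 to 618 and 465 to 629 CPM. No marker row was at 0 in all 8 libraries, though Osr2 was at 0 in 7, Cdh17 in 3, and Wnt2 and Ccl21a in 1 each. Each pair of ranges overlapped. The part of cell mixture in the results was not tested. The rows of Alb, Ttr and Apoa1 lie outside the stretches and were not read.

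The ER folds secreted and membrane proteins, and hepatocytes, which secrete most plasma proteins, are rich in it. Chains enter through the Sec61 channel, are folded and held back by chaperones until mature, and are otherwise marked with ubiquitin, pulled into the cytosol and destroyed by the proteasome, a route called ER-associated degradation. Whole pieces of ER can also be taken into autophagosomes through receptors in its membrane, a process called ER-phagy. Membrane-bound transcription factors report from the ER to the nucleus when folding is disturbed.

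RefSeq start sites (GRCm38.p6) were available for all 7 genes, 11 starts in total with 4 for Retreg1 and 2 for Erp44. The 250 bases before each start were searched on both strands for 4 letter strings. One was the ER stress response element (CCAAT and CCACG with 9 bases of any kind between them). TGACGTGG (unfolded protein response element) and TGATGCAA (amino acid response element) are likewise tied to ER or amino acid stress. The last was TGACGTCA, the cyclic AMP response element, which members of the CREB family bind. A match was found in 3 of the 11, before Retreg1, Vcp and Ube2j1, and all 3 are shown. Capitals mark the match. Only bases outside annotated exons are printed, except for Ube2j1, where the match lies inside an exon of a non-coding transcript on the opposite strand.
Retreg1, chr15:25843048-25843179, plus strand: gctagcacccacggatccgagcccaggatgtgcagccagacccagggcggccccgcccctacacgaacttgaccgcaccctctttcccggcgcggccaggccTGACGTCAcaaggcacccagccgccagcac
Vcp, chr4:43000508-43000757, minus strand: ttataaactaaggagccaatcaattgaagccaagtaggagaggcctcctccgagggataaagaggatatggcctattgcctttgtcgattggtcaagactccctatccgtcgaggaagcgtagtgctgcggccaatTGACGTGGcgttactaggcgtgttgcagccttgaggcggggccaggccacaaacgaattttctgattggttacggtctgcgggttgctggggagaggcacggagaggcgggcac
Ube2j1, chr4:33031302-33031329, plus strand: gaagcgcccgCCACGTCAggccgacttc

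The string TGACGTGG lay 114 to 107 bases before the Vcp start on the gene's strand, and 68 to 61 bases before the Ube2j1 start on the opposite strand, where it reads CCACGTCA. It was present before 0.563% of 32851 RefSeq starts. TGACGTCA lay 148 to 141 bases before the first RefSeq start of Retreg1 and was present before 1.55% of starts. The window of that start ran to 25843297, while the printed stretch stops at 25843179, just before the annotated gene start. TGACGTGG and TGACGTCA share their first letters, and the 3 matches lay before 3 different genes. The ER stress response element and TGATGCAA were in none of the 11 windows and in 0.113% and 0.791% of all. A match is a run of letters and was not tested as a binding site. GC content over the 11 windows ran from 39.6% at the fourth Retreg1 start to 77.2% at Ube2j1, against a median of 52.4% over all starts.

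In the comparison of genotypes, none of the 7 genes passed edgeR's quasi-likelihood test after Benjamini-Hochberg adjustment over all 10020 tested rows, where 0% of rows passed, on the stretches as well. Retreg1 had the lowest level in SostPB/- relative to Sost-/-, at a ratio of 0.727, and Creb3 followed at 0.808. The ratios of the other 5 lay between 0.894 (Calu) and 1.12 (Erp44). The log2 fold change (SostPB/- over Sost-/-) was below 0 for 6 of the 7, where it was for 51.7% of the 458 tested rows on the stretches and 51.2% of all tested rows. With plain library totals in place of TMM scaling it was below 0 for all 7, while the median of the rows on the stretches moved to -0.20. The median of the 7 was -0.14, against -0.005 over those 458 rows. That median depended on single libraries: it was -0.04 without Sost-/- replicate 4, -0.05 without SostPB/- replicate 3, -0.07 without SostPB/- replicate 1, where 4 of the 7 were below 0, and -0.23 without SostPB/- replicate 4. All 7 of the 95% intervals lay within a 2-fold change either way, running at their widest from -0.76 to 0.56 on the log2 scale. One of the 7, Retreg1, had an unadjusted p under 0.05 in edgeR, where 8.3% of tested rows on the stretches and 6.45% of all tested rows did. With DESeq2, limma-voom and library totals it was 2 of the 7, Retreg1 and Creb3. Of all rows, 3.97%, 8.09% and 7.18% were under 0.05 in these 3 settings. The same 2 genes were under 0.05 without Sost-/- replicate 1, where 6.97% of rows were. So they were in a fit on stretch and mitochondrial rows alone (9.94% of rows). A fit on stretch rows alone, added after seeing the data, also had both (8.48% of rows). DESeq2 also called 0 of 7, where it called 0.418% of all rows with an adjusted p, 4 of them on the stretches. Limma-voom called 0 of 7. In whole liver, fewer cells of a type and less RNA per cell cannot be told apart, and nothing in the labels places these mice in litters or batches.

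**Figure D1:**
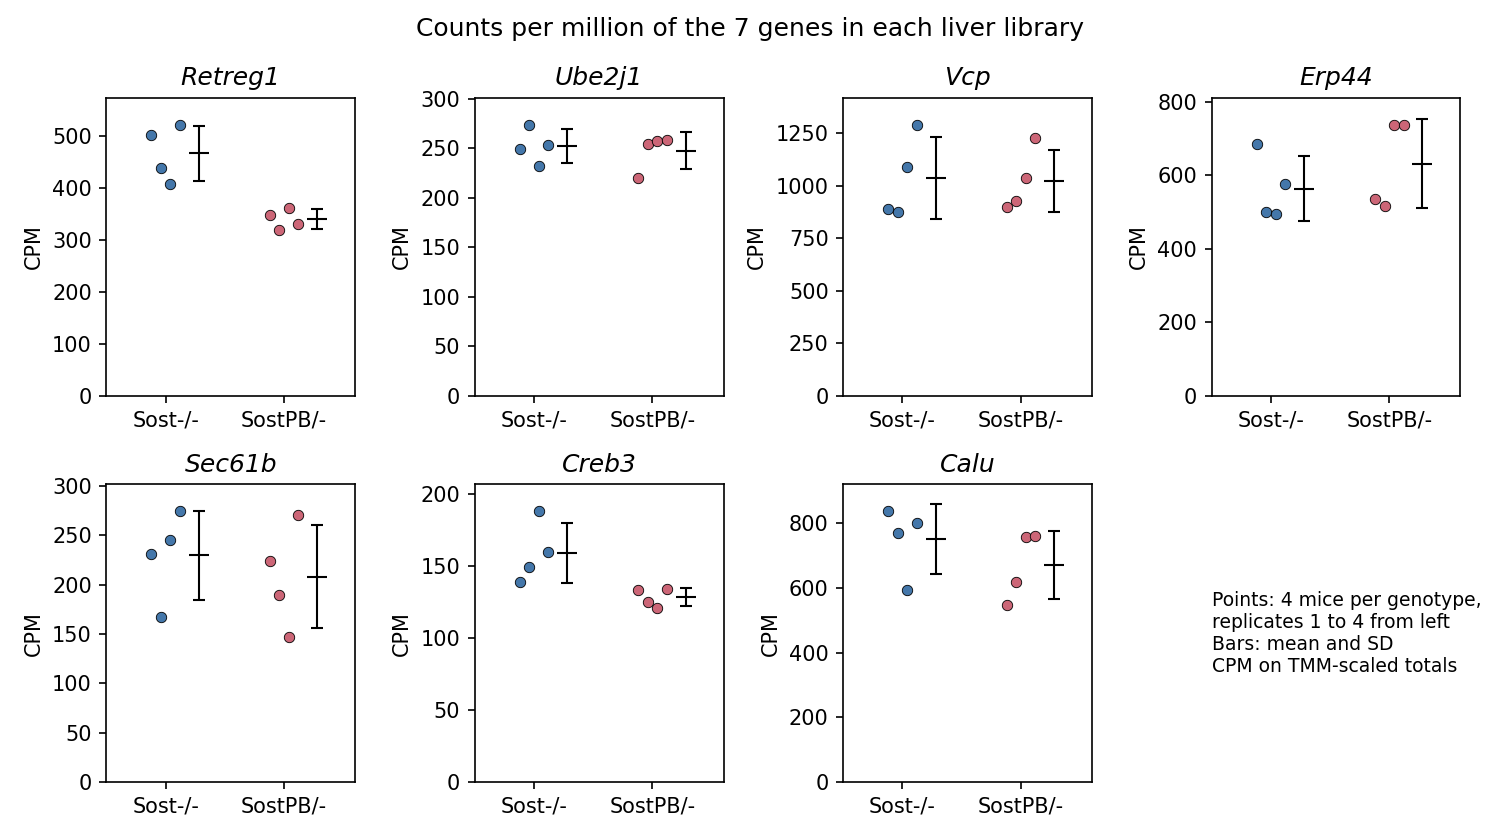
CPM (y axis, from 0) of each gene in the 8 libraries, by genotype (x axis). Points are mice, replicates 1 to 4 from left, and bars are the mean with SD (n = 4). Retreg1 in SostPB/- reached at most 362 CPM, below the Sost-/- minimum of 408 CPM, and Creb3 at most 134 CPM, below 139 CPM, while the groups of the other 5 genes overlapped.

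Retreg1 encodes a reticulon-type receptor for ER-phagy that bends ER sheets and binds LC3-family proteins on forming autophagosomes (ENSMUSG00000022270, chromosome 15, 25843180 to 25973687, plus strand). Retreg1 levels were 502, 439, 408 and 522 CPM in Sost-/- replicates 1 to 4. In SostPB/- replicates 1 to 4 they were 349, 319, 362 and 331 CPM. Every SostPB/- library was below every Sost-/- library, with 45.4 CPM between the nearest, and the SostPB/- mice lay close together. The means were 468 ± 53.2 and 340.1 ± 19.2 CPM (SD, n = 4), a coefficient of variation of 11.4% and 5.63%. On the log2 scale the difference was -0.46 (SE 0.14, 95% interval -0.76 to -0.16), with an edgeR adjusted p of 0.652. By p it ranked 9 among the 458 rows on the stretches. As CPM of nuclear counts, which leaves the mitochondrial share out, Retreg1 was at 915 to 1163 in Sost-/- and 722 to 838 in SostPB/-, again without overlap. No annotated gene overlaps its exons. Retreg1 has a longer and a shorter protein form, and the counts per gene do not separate them.

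Groups that do not overlap, lower in SostPB/-, were found for 2 of the 7 genes, Retreg1 and Creb3, and for 2.18% of the tested rows on the stretches and 2.19% of all tested rows. Nothing is read from that difference, since the genes were chosen with earlier results known. The Creb3 separation rested on the scaling: with plain library totals, and as CPM of nuclear counts, its groups overlapped and Retreg1 alone of the 7 remained apart.

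Creb3 encodes a bZIP transcription factor anchored in the ER membrane that is released by cleavage in the Golgi and then enters the nucleus (chromosome 4, 43562332 to 43567060, plus strand). It stood at 139, 149.5, 188 and 159.6 CPM in Sost-/- replicates 1 to 4, and at 133, 125, 121 and 134 CPM in SostPB/-. The highest SostPB/- library was 4.93 CPM below the lowest Sost-/- library, and replicate 3 was the highest of its Sost-/- group. With means of 159 ± 21.1 and 128 ± 6.38 CPM (SD, n = 4), Creb3 differed by -0.31 on the log2 scale (SE 0.14, interval -0.62 to 0.01, edgeR adjusted p = 0.785). Exons of Tln1 overlap Creb3 by 360 bp (15.2% of its exon length) on the opposite strand. Gba2, also on the opposite strand, overlaps Creb3 as well, and the overlaps with both genes come to 493 bp. Mean counts were 4960 for Tln1 and 743 for Gba2, against 1628 for Creb3. Whether counting used strand is unknown here, so reads of the shared bases cannot be told apart. For Tln1, a cytoskeletal linker, the difference was -0.19 (SE 0.17), and for Gba2, a glucosylceramidase, it was -0.07 (SE 0.20).

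Both degradation genes differed little between genotypes under the TMM scaling with all libraries. With library totals Ube2j1 was at -0.23 and Vcp at -0.23. Ube2j1 encodes an ER-membrane ubiquitin-conjugating enzyme of ER-associated degradation (chromosome 4, 33031416 to 33052363, plus strand). Its levels were 249, 273, 232 and 253 CPM in Sost-/- and 219.6, 254, 257 and 258 CPM in SostPB/-. It was the steadiest of the 7, with a highest library 1.24 times the lowest. The log2 fold change of Ube2j1 was -0.03 (SE 0.13, interval -0.32 to 0.26, edgeR adjusted p = 0.992). SostPB/- replicate 1 stood below the other 3 libraries of its group.

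Vcp encodes the p97 ATPase, which pulls ubiquitin-marked proteins out of the ER membrane (chromosome 4, 42979963 to 43000507, minus strand). The Sost-/- libraries held 888, 878, 1090.05 and 1290.1 CPM, and the SostPB/- libraries 899, 930.1, 1038 and 1228 CPM. The 2 ranges were nearly the same, and in each genotype replicate 4 was the highest. The means were 1036 ± 195 and 1024 ± 149 CPM (SD, n = 4), with a log2 fold change of -0.02 (SE 0.17, interval -0.40 to 0.36, edgeR adjusted p = 0.996). Without Sost-/- replicate 4 it was 0.11. An uncharacterised coding gene on the opposite strand overlaps 352 bp of Vcp exons (7.26%) and had a mean of 23.5 counts, against 11538 for Vcp.

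Among the genes of folding and retention, Erp44 was the only one of the 7 with a log2 fold change above 0. It encodes a thioredoxin-family protein that cycles between Golgi and ER and brings back unassembled clients and oxidases (chromosome 4, 48193323 to 48279558, minus strand). Sost-/- replicates 1 to 4 had 684, 499, 496 and 577 CPM, and SostPB/- replicates 536, 517, 737 and 736 CPM. SostPB/- replicates 3 and 4 lay above all Sost-/- libraries, while replicates 1 and 2 lay within their range. Erp44 differed by 0.16 on the log2 scale (SE 0.18, interval -0.23 to 0.56, edgeR adjusted p = 0.964). With plain library totals it was at -0.03. Erp44 was at 0.08 without SostPB/- replicate 3 or 4, 0.25 without SostPB/- replicate 2 and 0.27 without Sost-/- replicate 1.

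Calu encodes calumenin, a calcium-binding protein of the ER lumen and secretory pathway (chromosome 6, 29348069 to 29377110, plus strand). It had 837, 769.7, 594 and 802 CPM in Sost-/- and 548, 619, 757 and 760.4 CPM in SostPB/-. Sost-/- replicate 3 and SostPB/- replicates 1 and 2 were the low libraries, and the groups overlapped. Its difference was -0.16 on the log2 scale (SE 0.17, interval -0.53 to 0.21, edgeR adjusted p = 0.964). It was -0.07 without SostPB/- replicate 1, -0.10 without Sost-/- replicate 1 and -0.26 without Sost-/- replicate 3. Opn1sw overlaps 8.51% of the Calu exons, and its row had a mean of 4.88 counts, against 8016 for Calu.

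Sec61b encodes the beta subunit of the Sec61 channel, through which new chains enter the ER (chromosome 4, 47474658 to 47483242, plus strand). Its levels were 231, 167, 245 and 274 CPM in Sost-/- and 224, 189.6, 147 and 270.3 CPM in SostPB/-. It was the most variable of the 7 within a genotype, with a coefficient of variation of 19.7% and 25.1%, and SostPB/- replicate 3 was the lowest of all 8. The difference for Sec61b was -0.14 on the log2 scale (SE 0.22, interval -0.62 to 0.33, edgeR adjusted p = 0.980). Without SostPB/- replicate 3 it was -0.01 and without Sost-/- replicate 4 it was -0.04, while without SostPB/- replicate 4 it was -0.30 and without Sost-/- replicate 2 it was -0.27. The lowest count of any of the 7 genes in a library was 1041, where the counting error is 3.10%. The spread between libraries of a genotype was above that, at 4.97% to 25.1%. With 1 library per mouse, the part of the mouse and that of library preparation cannot be told apart.

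**Figure D2:**
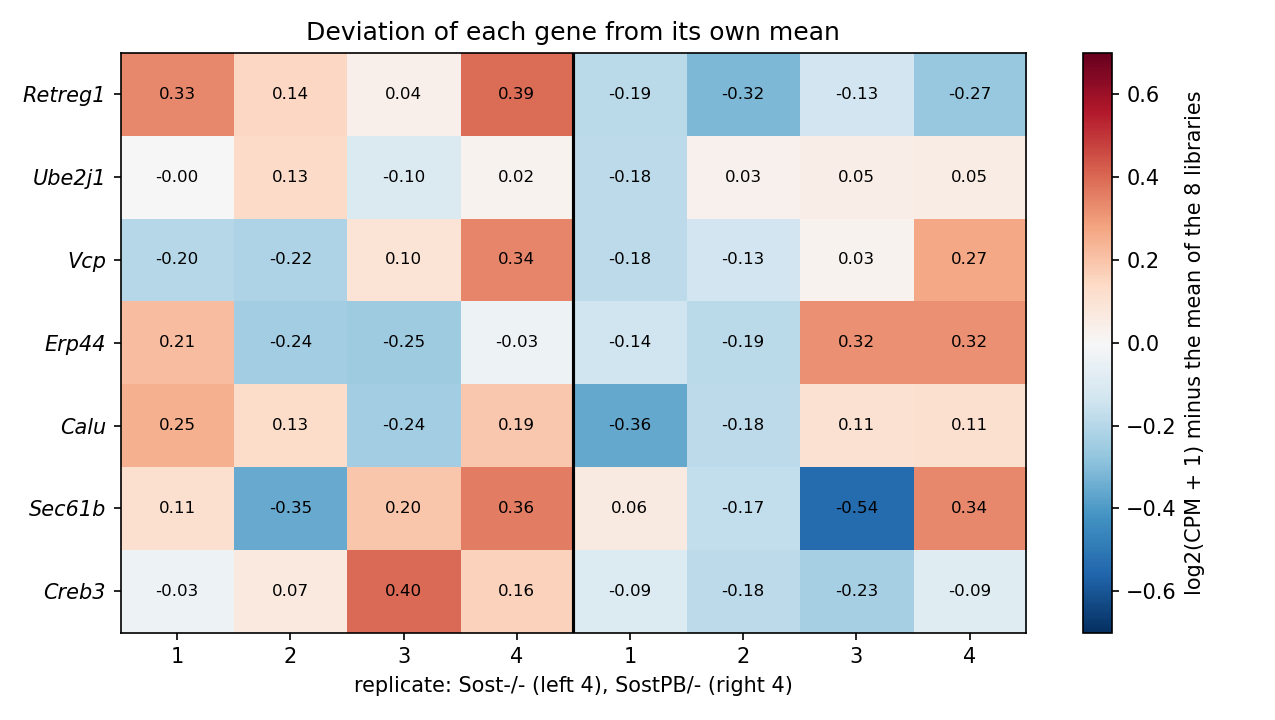
Deviation of each gene (rows) from its own mean over 8 libraries (columns, replicates 1 to 4 of each genotype), as log2(CPM + 1), in colour and numbers. All 4 Retreg1 cells are above 0 in Sost-/- and below 0 in SostPB/-, while Sec61b holds the lowest cell, at -0.54, in SostPB/- replicate 3.

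The 7 genes did not share 1 profile over the mice. Sost-/- replicate 4 was the highest of the 8 libraries for Retreg1, Vcp and Sec61b, replicate 1 for Calu, replicate 2 for Ube2j1 and replicate 3 for Creb3. SostPB/- replicate 3 was the highest for Erp44 and the lowest for Sec61b and Creb3. Together the 7 genes held 0.659% to 0.874% of the nuclear counts of a library.

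For each gene, the genes with the most similar profile were sought among 303 other coding genes on the stretches with a mean of at least 100 counts. Likeness was the root mean square difference of centred log2(CPM + 1) over the 8 libraries, which share the same scaling, and it carries no test. Aass, a mitochondrial enzyme of lysine breakdown, was closest to Retreg1 at 0.08, where the median of the 303 was 0.35 and Retreg1's own deviation was 0.25. Its levels were 1381, 1164, 1021 and 1249 CPM in Sost-/- and 908, 852, 935 and 963 CPM in SostPB/-, without overlap. Aass was picked for its likeness to Retreg1 over these same libraries, so this separation is no second result. The log2 fold change of Aass was -0.40 (SE 0.14, edgeR adjusted p = 0.687). Ube2h, a ubiquitin-conjugating enzyme, came next at 0.15, with overlapping groups. Closest to Erp44 were Rab2a, a GTPase of traffic between ER and Golgi, and Dpy19l4, both at 0.08. For Calu they were Mtmr12 at 0.07 and Map3k7 at 0.09, and for Creb3 the transcription factor gene Nrf1 at 0.09 and Nipsnap3b at 0.11. Ube2j1 was nearest to Ecpas at 0.07 and Map3k7 at 0.09. Vcp was nearest to Anp32b and Ubxn2b, both at 0.13. Sec61b was nearest to Rars2 at 0.18 and Tomm5 at 0.20. This difference grows with a gene's own deviation, so it does not rank likeness between the 7 genes. That deviation was 0.09 for Ube2j1, close to the distances of its neighbours, and 0.30 for Sec61b. It was 0.20 for Vcp, 0.23 for Erp44, 0.21 for Calu and 0.19 for Creb3.

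**Figure D3:**
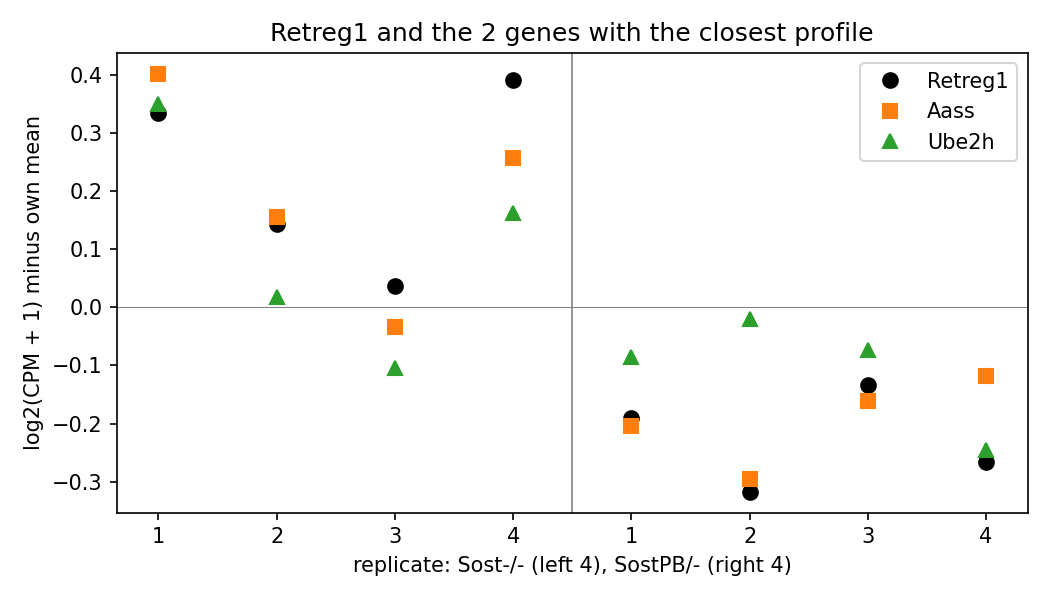
Centred log2(CPM + 1) (y axis) of Retreg1, Aass and Ube2h in each library (x axis, replicates 1 to 4 of each genotype). Retreg1 and Aass are apart by genotype, with a root mean square difference of 0.08 from each other, while Ube2h overlaps between genotypes. Aass and Ube2h were chosen for their closeness to Retreg1 in these libraries.

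Levels of different genes were compared per kilobase of exon. Vcp was the most abundant of the 7, at 212 ± 33.2 CPM per kb (SD over 8 libraries), and ranked 25 among 370 tested coding genes on the stretches. Erp44 followed at 175 ± 30.7, Sec61b at 172 ± 36.7 and Calu at 152 ± 23.0 CPM per kb. Each adjacent pair of these 4 held its order in only 5 or 6 of 8 libraries, while the lowest Vcp library, at 180.9 CPM per kb, was above the highest Calu library, at 179 CPM per kb. Retreg1 stood below Calu in all 8 libraries, at 97.5 ± 18.7 CPM per kb, although the 2 ranges overlapped. Ube2j1, at 70.7 ± 4.70, was below Retreg1 in all 8, and Creb3, at 60.6 ± 9.19 CPM per kb, was below Ube2j1 in 7. All 7 lay above the median of the 370 genes, 17.1 CPM per kb. With the length of the longest transcript in place of all exons, Sec61b was at 302 and Vcp at 311 CPM per kb, and Creb3 at 76.3 came above Ube2j1 at 70.7.

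**Figure D4:**
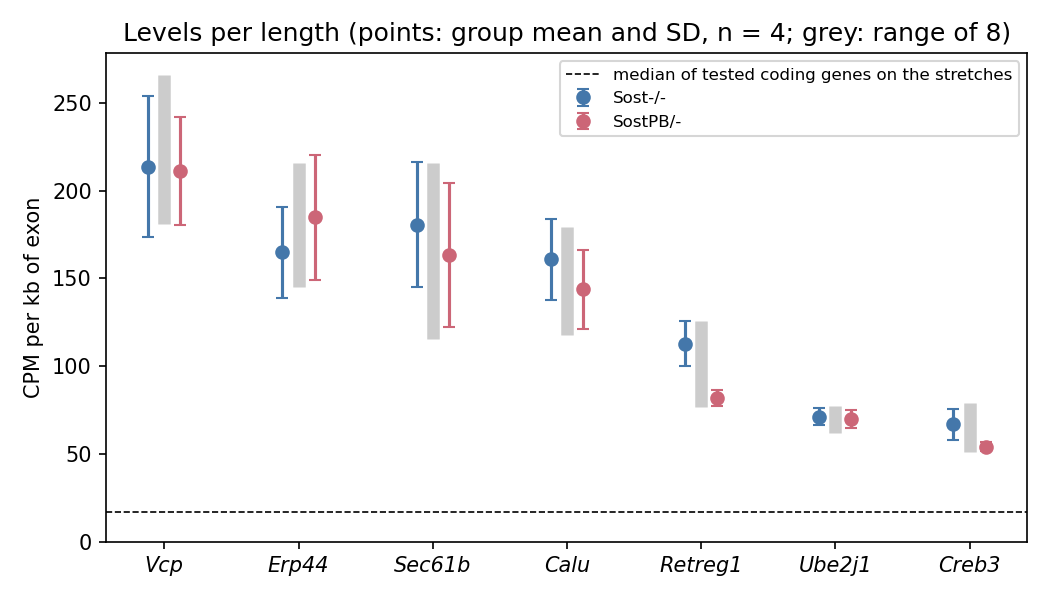
CPM per kilobase of exon (y axis, from 0) of the 7 genes, ordered by level. Points are genotype means with SD (n = 4), grey bars the range of 8 libraries, and the dashed line the median of 370 coding genes, 17.1 CPM per kb. Vcp at 212 is the highest and Creb3 at 60.6 the lowest.

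Related genes of the ER, of protein folding and of ubiquitin handling were read from lists of 271 further symbols. Of these, 28 lay on the stretches, all of them tested. The folding and ubiquitin lists were not limited to proteins of the ER, and hold cytosolic ones such as Dnaja1. None passed edgeR's test over all rows, 17 were above 0 and 11 below, and the median log2 fold change was 0.07. One, Asns, had an unadjusted p under 0.05, and for 0 of the 28 did the groups stay apart. DESeq2 and limma-voom also called 0 of the 28, with 1 and 2 at an unadjusted p under 0.05, where 3.97% and 8.09% of all their rows were. Without single libraries the median ran from 0.02 (without Sost-/- replicate 3, or SostPB/- replicate 4) through 0.03 (without Sost-/- replicate 2) to 0.09. The split by direction depended on the scaling: with plain library totals 4 were above and 24 below 0, with a median of -0.12, and the directions given below are relative to the TMM scaling.

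Beside Retreg1, the ER-phagy list held Ufl1, the ligase that attaches UFM1 at the ER surface, and Stx17, a SNARE of autophagosome fusion. Ufl1 had 203, 202, 196 and 216 CPM in Sost-/- and 188, 179.8, 357 and 350.2 CPM in SostPB/-. As for Erp44, SostPB/- replicates 3 and 4 were the high libraries, and replicates 1 and 2 lay below all Sost-/- libraries. Ufl1 differed by 0.40 on the log2 scale (SE 0.24, edgeR adjusted p = 0.907), and that of Stx17 was -0.06 (SE 0.14). The 7 further genes of degradation and ubiquitin handling were split, 3 above and 4 below 0 (0 and 7 with library totals, 4 and 3 without SostPB/- replicate 4). Among them were Ube2h at -0.22 (SE 0.14), the ER-membrane ligase Marchf6 at -0.17 (SE 0.18), Tmem67 at -0.20 (SE 0.24) and the ubiquitin shuttle Rad23b at 0.12 (SE 0.17).

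Of 8 further folding genes, 7 had a log2 fold change above 0 and 1 below, with a median of 0.13, and 0 of 8 passed. The list is not limited to chaperones of the ER, so this split is not one of ER folding genes alone. With library totals 2 were above and 6 below, with a median of -0.06, and without SostPB/- replicate 1 there were 6 above and 2 below, with a median of 0.20. Dnaja1, a cytosolic partner of Hsp70, had 1332, 884, 1102 and 1158 CPM in Sost-/- and 1229.5, 1229, 1507 and 1542 CPM in SostPB/-. SostPB/- replicates 3 and 4 were again the highest, and Sost-/- replicate 1 lay within the SostPB/- range. On the log2 scale Dnaja1 differed by 0.30 (SE 0.16, edgeR adjusted p = 0.884). Dnajc21 was at 0.19 (SE 0.15) and the ER hydroxylase Asph at 0.18 (SE 0.16).

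Of the stress list, Asns, which encodes the enzyme that makes asparagine and is switched on by ATF4, had 24.3, 73.9, 46.1 and 92.3 CPM in Sost-/-. In SostPB/- it had 22.9, 28.1, 24.1 and 49.9 CPM. Sost-/- replicates 2 and 4 lay above all SostPB/- libraries, and replicates 1 and 3 within their range. Asns differed by -0.92 on the log2 scale (SE 0.39, interval -1.79 to -0.05, edgeR adjusted p = 0.748). Tars, the threonyl-tRNA synthetase, was at 0.19 (SE 0.18). In glycan and GPI anchor assembly, Pigo was at -0.16 (SE 0.18), Manea at 0.15 (SE 0.20) and Alg2 at -0.06 (SE 0.44), the last with SostPB/- libraries from 12.4 to 88.3 CPM. Of 6 traffic genes 4 were above and 2 below 0, against 1 and 5 with library totals and 2 and 4 without SostPB/- replicate 4, where their median moved from 0.06 to -0.01. Among them were the COPI subunit Copg2 at 0.31 (SE 0.17), Rab2a at 0.12 (SE 0.16), Rgp1 at -0.09 (SE 0.17) and Golph3 at 0.07 (SE 0.16). Of the translocation list, no gene beside Sec61b lay on the stretches.

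**Figure D5:**
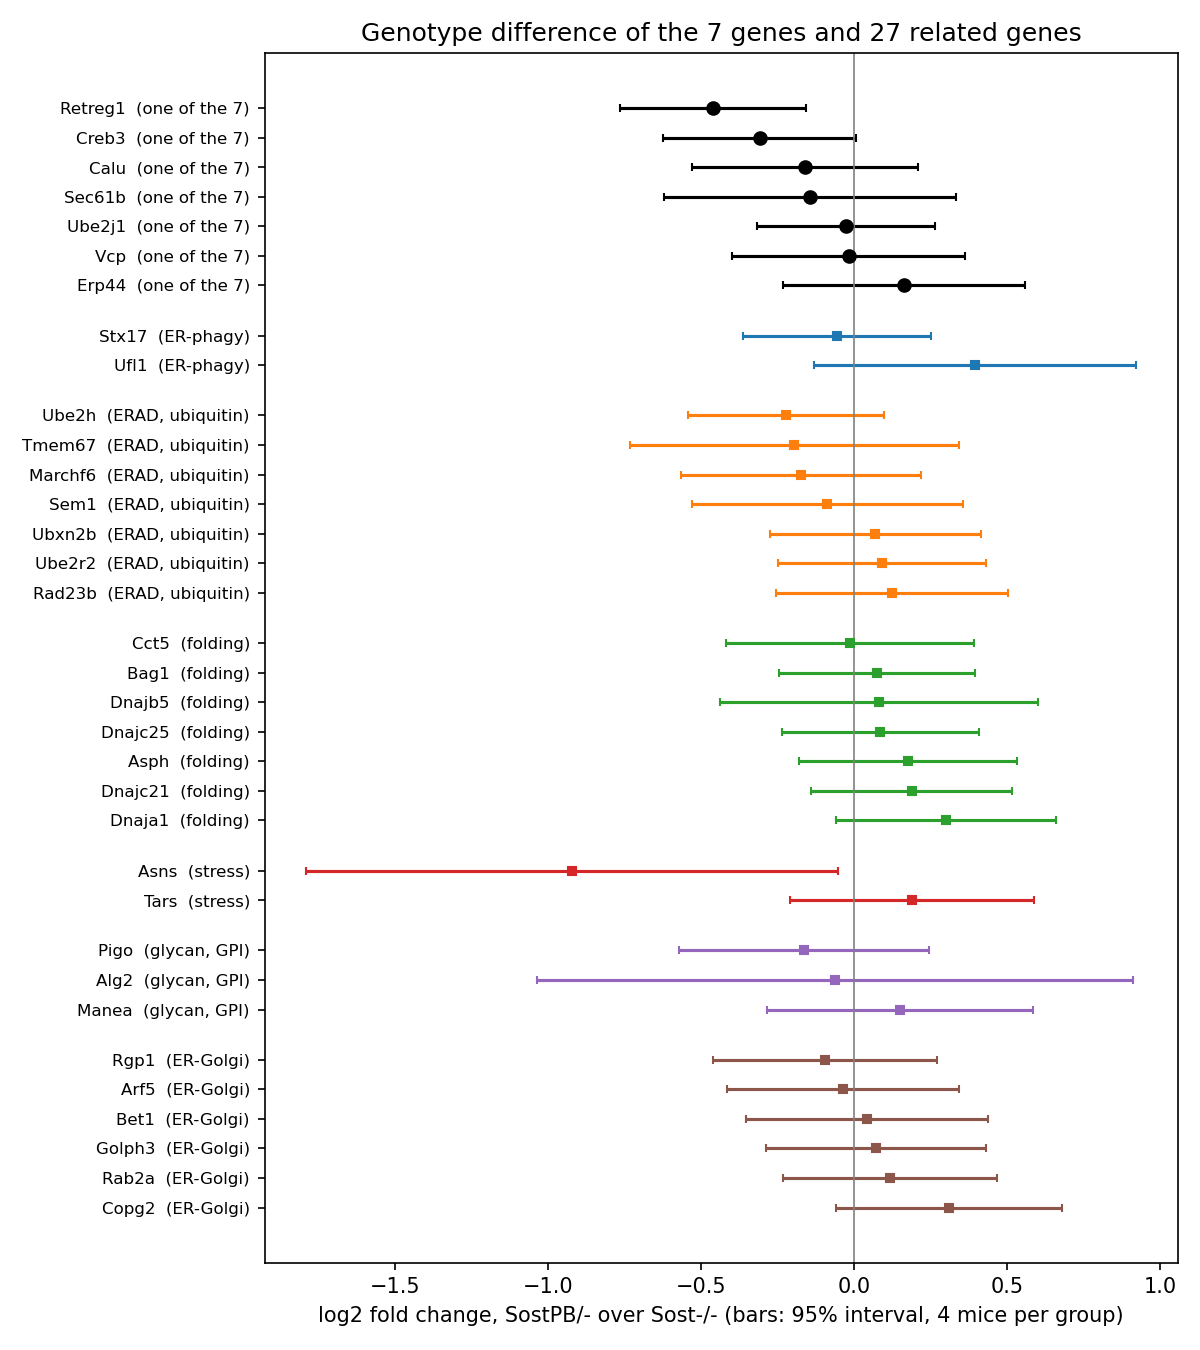
Log2 fold change, SostPB/- over Sost-/- (x axis), with 95% intervals for the 7 genes (circles) and 27 related genes (squares, coloured by list). Of the 7, 6 intervals include 0 and that of Retreg1 does not, and the lowest value among the related genes is -0.92 for Asns.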

How the data were processed

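The authors deposited whole-number counts per gene row, 1 column per mouse. HISAT2, StringTie, DESeq2 and mm10 were used per the submitters' processing notes, which carry no version. The sources used here do not give the strand setting or annotation release. A second deposited table, of scaled counts, was not used. Positions came from GENCODE M21 (GRCm38) by Ensembl ID without version (52135 rows matched).

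Counts were tested with edgeR 4.0.16 (R 4.3.3): filterByExpr, TMM, glmQLFTest over all 10020 tested rows, Benjamini-Hochberg threshold 0.05. CPM used TMM-scaled totals. The standard error was the log2 fold change over the square root of F. DESeq2 1.42.0 and limma 3.58.1 were alternatives. On simulated counts with 9517 rows tested, the test recovered 10% of genes set to differ 2-fold and 52.2% of those set to 4-fold. It made 2 false calls, and 95.3% of the 95% intervals held the true value. These shares are over simulated rows of the whole table, not of the stretches alone. In the real counts the median row dispersion was 0.124 over all tested rows and 0.0623 over rows on the stretches. Recovery for genes on the stretches was not tested separately.

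The 7 genes, the lists and the named-gene rule were chosen with earlier results of these data known. The rule named the 7 genes, up to 4 genes per list with the smallest p, and the 2 closest profiles per gene. One listed gene is counted but not reported by name here. Alternatives covered scaling, filters, tools, left-out libraries and a replicate block, and 3 were added after seeing the data. Promoter sequences are RefSeq's (GRCm38.p6). The labels call the replicates biological, without naming litters.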

Additional observations from a re-analysis of the deposited data

Results flagged for a closer look

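Each library was compared with its own genotype by the gap to its nearest neighbour over the range of the group, over 76 sets of 4 values. Of these, 6 exceeded the critical gap, which chance alone exceeds in about 1 of 20 sets. Ube2j1 was low in SostPB/- replicate 1, at 219.6 CPM against 254 to 258 in the others. Tmem67, a membrane protein of the ER and cilium, was high in Sost-/- replicate 4, at 22.9 CPM against 16.2 to 16.4. Sem1, a small proteasome subunit, was high in Sost-/- replicate 3, at 162 CPM against 96.2 to 104.8. Total counts were high in Sost-/- replicate 1 (14932773) and SostPB/- replicate 2 (14613316). The number of rows above 0 was low in SostPB/- replicate 4, at 14459 against 14735 to 14762.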

How the results depend on the processing

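The 7 genes stayed uncalled under all 19 alternatives, and the log2 fold changes of Retreg1, Creb3, Calu and Sec61b stayed below 0 in each. Retreg1 ran from -0.65 (library totals) to -0.39 (without both deepest libraries, added after seeing the data), with edgeR or other adjusted p from 0.155 (DESeq2) to 0.999. The log2 fold change of Erp44 was -0.0255 with library totals and 0.08 to 0.27 without single libraries. Without single libraries, the log2 fold change of Ube2j1 ran from -0.0629 to 0.0268 and Vcp from -0.12 to 0.11, with both signs. Of all rows, 0 were called, against 53 by DESeq2, 1 by limma-voom, 2 without a filter, 1 with a mean of at least 50 counts, 0 to 4 without single libraries and 3 without both deepest libraries. The cause was not tested. With library totals, and as CPM of nuclear counts (added after seeing the data), groups stayed apart for 1 gene in place of 2. With replicate number as a block 0 of 7 were called and Retreg1 was at -0.45 (adjusted p = 0.979). Same-numbered libraries did not deviate together over all tested rows (correlations -0.09 to 0.06). The labels give them a shared number alone, and a shared litter or batch was not tested. For the 7 genes, the spread between the 4 libraries per genotype, 1 per mouse, was above the counting error.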
